A study of Mus musculus with 2 samples.

Results

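The genes of the insulin-like growth factors (IGFs), their receptors and their binding proteins were examined in mouse white matter that lacked CD47. These 10 genes were taken by name and not by a limit on their values, with earlier results of these data known: the ligand genes Igf1 and Igf2, the receptor genes Igf1r and Igf2r, and the binding protein genes Igfbp2, Igfbp3, Igfbp4, Igfbp5, Igfbp6 and Igfbp7. They are 10 of 18193 genes on the array and are read by 28 of its probe sets, short oligonucleotide groups that each report on a transcript. RNA from optic nerve and optic tract was compared between male wild-type (WT) mice at 13 to 15 weeks of age and male CD47 null mice (Cd47-/-, here CD47 KO) at 12 to 15 weeks, with no treatment in either group and with a deletion that is not limited to a cell type. Each genotype was 1 pool of RNA on 1 array. The series text gives 5 WT and 4 CD47 KO animals per pool, as the methods of the study do, and the labelling protocol gives 4 and 5. The comparison asks how the white matter changes when the ligand of SIRPα, an inhibitory receptor on microglia, is missing.

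IGF1 and IGF2 are small secreted hormones that resemble insulin. Both act through the IGF1 receptor, a tyrosine kinase that signals through IRS adaptors, PI3K and AKT to favour growth and survival, and oligodendrocyte lineage cells are among the cells that respond to it. The product of Igf2r does not signal in this way: it carries lysosomal enzymes tagged with mannose 6-phosphate and takes IGF2 up for degradation. The binding proteins hold IGFs in the extracellular space, where they can prolong their life or withhold them from the receptor. In the brain, microglia are a known source of IGF1, whereas IGF2 is known from the meninges and choroid plexus.

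Values are MAS5 signals, a brightness on a linear scale. A floor was set at the 50th percentile of all signals (106.4). Signals under it were raised to it, a gene was called measured if it exceeded the floor in at least 1 array, and where 1 of the arrays was at the floor the ratio is only a bound. Each gene was read from its brightest probe set. With 1 array per genotype there was no replicate and no test, so that no p-value or standard error is given; for scale, pairs of probe sets of the same gene differed in log2 ratio with an SD of 0.36, which holds neither the spread between mice nor that between arrays. The median log2 ratio of CD47 KO over WT, over 12473 measured genes, was -0.02. The targeted gene Cd47 was lower in CD47 KO by all 4 of its measured probe sets, with signals of 3928 in WT and 1346 in CD47 KO for the brightest, a log2 ratio of -1.54.

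In CD47 KO white matter the signal of Igf1 was higher, those of 3 binding protein genes were lower by smaller amounts, and the other 6 genes differed by less than 1.1-fold. All 10 genes were measured, and 22 of their 28 probe sets exceeded the floor on 1 array or both. Past 2-fold, 1 of the 10 genes (Igf1) was higher and 0 were lower, where 1.21% of all measured genes were higher by as much and 0.818% lower. At 1.5-fold, Igf1 was again the 1 higher gene and Igfbp4 the 1 lower gene, beside 4.02% and 4.68% of all measured genes. The median log2 ratio of the 10 was -0.01, close to that of all genes.

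Igf1, the ligand known from microglia, had a brighter signal in CD47 KO with each of its 4 probe sets. The brightest, 1434413_at, read 484 in the WT pool and 1233 in the CD47 KO pool. That is a log2 ratio of 1.35, or 2.55-fold, and 64 of 12473 measured genes (0.513%), Igf1 among them, had a ratio as high. Igf1 is one of the genes that the study picked out in part from these samples, so that its direction here is no independent evidence. By quantitative PCR of optic chiasm and optic nerve RNA from several mice per genotype, the study also reported higher Igf1 in CD47 KO. It reported the same direction on separate arrays of brain mononuclear cells. Neither of those data sets was examined here. In a bulk sample, more cells that express a gene and more RNA of it per cell cannot be told apart.

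The 4 probe sets of Igf1 gave the same direction but not the same size. With 1437401_at the signal was 548 in WT and 1058 in CD47 KO, 1.93-fold and so just under 2-fold. With 1419519_at it was 178 and 505, or 2.84-fold. The widest difference came from 1452014_a_at, a probe set whose suffix marks it as reading several transcripts of a gene, with 167 in WT and 922 in CD47 KO, or 5.52-fold. On both probe sets with the larger ratios the WT signal was not far above the floor, and with the floor at the 60th percentile (187) their ratios became bounds, at least 4.93-fold for 1452014_a_at and at least 2.70-fold for 1419519_at. The log2 ratios of the 4 thus ran from 0.95 to 2.47, a range of 1.52. Among 435 genes with 4 probe sets that exceeded the floor on each array the median range was 0.47, and Igf1 had the widest. Of these genes 3, Igf1 among them, were over 2-fold higher, and their ranges ran from 0.34 to 1.52 with a median of 1.21. Which transcripts each probe set reads was not examined.

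**Figure D1:**
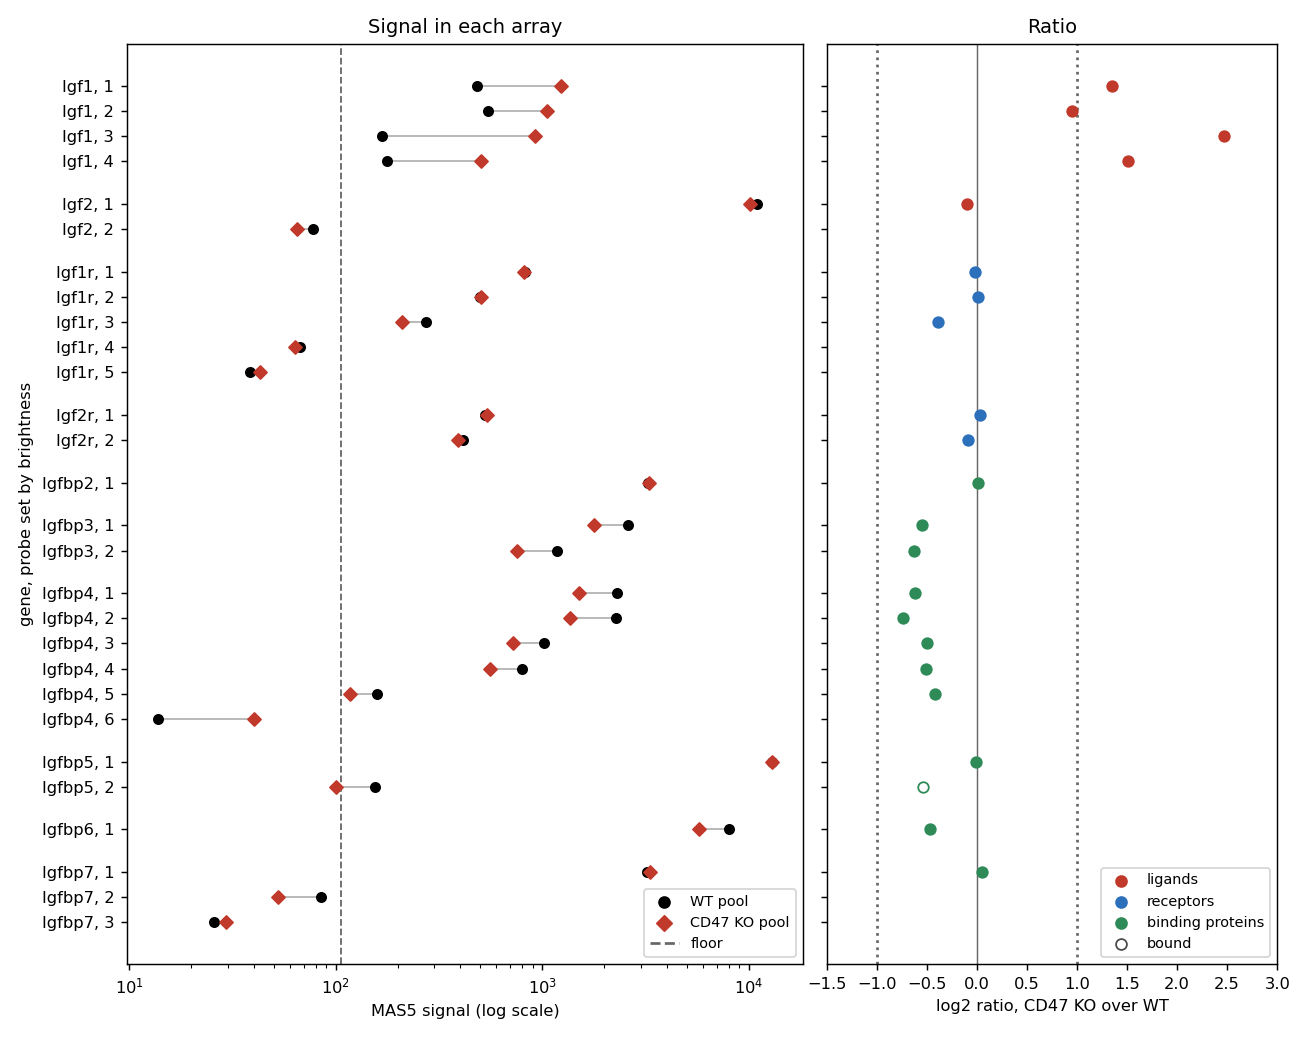
MAS5 signal (left, log scale) and log2 ratio of CD47 KO over WT (right) for the 28 probe sets of the 10 genes, numbered by brightness within each gene. Circles are the WT pool and diamonds the CD47 KO pool (1 array each; for the brightest probe set of Igfbp5 they overlap), the dashed line is the floor at 106.4, dotted lines mark 2-fold, and an open circle on the right is a bound. The 4 probe sets of Igf1 lie to the right of 0, from 0.95 to 2.47, and all measured probe sets of Igfbp3, Igfbp4 and Igfbp6 lie between -0.74 and -0.42.

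Other genes of microglia were set beside Igf1. The 3 genes above the floor in both arrays with the log2 ratio nearest to that of Igf1 (over the 2 arrays, the sole measure of likeness here) were Cx3cr1, which encodes the fractalkine receptor of microglia, at 1.35, Gpr65, an acid-sensing receptor gene, at 1.34, and the kinase gene Stk10 at 1.34. Of 7 measured genes of microglia in general, 4 were higher and 3 lower, with a median of 0.46, and the summed signal of the list (all genes with a probe set) was 22387 in WT and 30061 in CD47 KO (1.34-fold). The brightest of them, Csf1r, the receptor gene for colony-stimulating factor 1, had a log2 ratio of 0.46. All 7 genes known from CD11c-positive microglia were over 2-fold higher, where 1.21% of all measured genes were. The study likewise picked most of these 7 from these samples, so that the count is no independent evidence. The signals of the 7 summed to 3348 in WT against 22819 in CD47 KO (6.82-fold). Clec7a, the gene for dectin-1, was the brightest of these, with a log2 ratio of 2.93, and only Cst7 had an array under the floor, in WT. The log2 ratio of Igf1 thus lay between the medians of both lists. The part of these cells in the difference of Igf1 was not tested.

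Growth hormone is the main driver of IGF1 production in the liver, and its gene Gh, a gene of the pituitary, was also higher in the CD47 KO array. Its brightest probe set read 2191 in the WT pool and 6908 in the CD47 KO pool (3.15-fold). The other genes of this axis differed by less. The log2 ratio was 0.11 for the receptor gene Ghr, 0.00 for Jak2, the kinase of that receptor, and -0.14 for Stat5b, which carries its signal to the nucleus. Socs2, a feedback inhibitor that growth hormone induces, had a log2 ratio of -0.38 by its brightest probe set, -0.03 by the next and 0.25 by the dimmest of the 3 that were measured. Of 5 measured pituitary genes 3 were higher and 2 lower, with a median log2 ratio of 0.40. Their list summed to 3600.4 in WT and 8942 in CD47 KO, a difference that came mostly from Gh. Pomc, the precursor gene of corticotropin, was 3.07-fold higher (379 in WT and 1166 in CD47 KO). Cga, which encodes the subunit that several pituitary hormones share, was 2.49-fold lower (460 and 185). The part of the pituitary genes in the ratio of Igf1 was not tested. Whether the WT and CD47 KO pools differed in tissue from beside the optic nerve and optic tract was not tested either. This holds for the neuronal genes below as well.

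The other ligand and both receptors showed almost equal signals in both arrays. Igf2 read 10906 in the WT pool and 10166 in the CD47 KO pool, a log2 ratio of -0.10, and its other probe set was under the floor in both (78.0 and 65.2). Igf1r, the receptor through which both ligands act, had 827 in WT and 819 in CD47 KO by the brightest probe set and 501 and 506 by the next. Its remaining measured probe set was lower in CD47 KO, with 274 and 209 (log2 ratio -0.39). This differs from the brightest by less than 0.74, the difference that 95% of pairs of probe sets of a gene did not exceed. The other 2 probe sets of Igf1r were under the floor in both arrays. Igf2r had 527 in WT and 538 in CD47 KO by the brighter probe set and 413 and 389 by the other, with log2 ratios of 0.03 and -0.08. A further probe set that the annotation assigns both to Igf2r and to Airn was under the floor in both arrays and was left out. By the brightest probe sets, neither receptor gene thus differed by over 1.1-fold beside the higher signal of the ligand gene Igf1. The dimmest measured probe set of Igf1r was 1.31-fold lower in CD47 KO.

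Among the 6 binding protein genes, 3 were lower in CD47 KO and 3 were close to equal. Igfbp4, whose product releases IGF when it is cut by the protease PAPP-A, read 2295 in the WT pool and 1499 in the CD47 KO pool, a log2 ratio of -0.61 (1.53-fold lower). All 5 of its measured probe sets were lower, with log2 ratios from -0.74 to -0.42, and the sixth did not reach the floor on either array (13.7 and 40.3). These probe sets are not separate measurements of the animals, as all read the same pools. Igfbp3, the gene of the main IGF carrier of the blood, read 2601 in WT against 1779 in CD47 KO, which is 1.46-fold lower (log2 ratio -0.55), and its other probe set gave 1173 and 757 (log2 ratio -0.63). Igfbp6, whose product prefers IGF2 over IGF1, was read by 1 probe set, with 8000.1 in WT against 5766 in CD47 KO, which is 1.39-fold lower (log2 ratio -0.47). These ratios lay towards the lower end of all measured genes: 4.18% of them had a log2 ratio as low as that of Igfbp4, 5.65% as low as that of Igfbp3 and 8.04% as low as that of Igfbp6. Among genes whose mean log2 signal was within 1 of theirs, the shares were 1.33% (of 3455 genes), 2.03% (of 3208) and 2.98% (of 1176).

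The remaining binding protein genes had bright signals that were almost the same in both arrays. Igfbp2, known from astrocytes and the meninges, read 3265 in WT against 3289 in CD47 KO (log2 ratio 0.01). Igfbp5, whose product also lodges in the extracellular matrix, read 12954 in WT against 12885.5 in CD47 KO (log2 ratio -0.01). A dim probe set of Igfbp5 gave 154 in WT and 100.4, under the floor, in CD47 KO, a bound of at least 1.45-fold lower that the brighter one did not share. Igfbp7, which encodes a relative that binds IGFs only weakly and is known from vessels, read 3212 in WT against 3320.0 in CD47 KO (log2 ratio 0.05), with both other probe sets under the floor. No binding protein gene had a log2 ratio above 0.05.

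**Figure D2:**
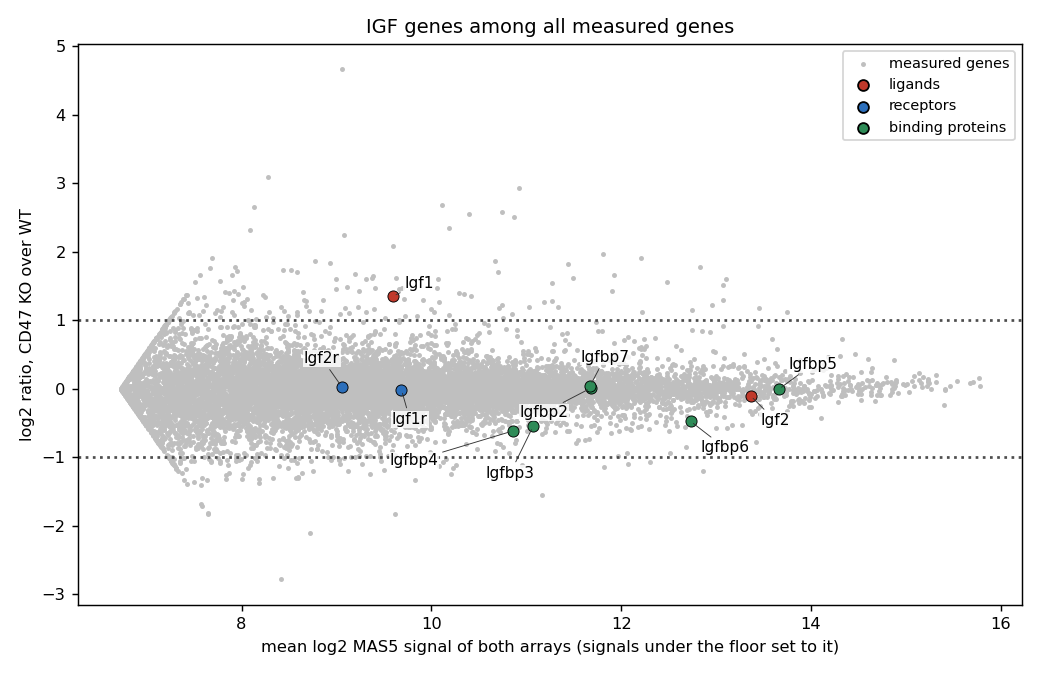
Log2 ratio of CD47 KO over WT (vertical) against the mean log2 signal of both arrays (horizontal) for 12473 measured genes (grey) and the 10 IGF genes, coloured by role; dotted lines mark 2-fold. Igf1 lies above the upper dotted line at 1.35, Igfbp4, Igfbp3 and Igfbp6 lie at -0.61, -0.55 and -0.47, and the other 6 genes lie between -0.10 and 0.05.

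The sequence before each gene was read for the 4 genes that differed most, chosen after their values were seen, to show what the start of Igf1 shares with those of the binding protein genes that were lower. The windows run from 250 bases before to 50 bases after an annotated start and come from RefSeq on build GRCm38.p6, in which all 10 genes matched, with 14 windows. Capitals mark GAGGAA, a core to which PU.1, the lineage factor of microglia, and related Ets factors bind, or its reverse complement. The window of Igf1 is chr10:87860861-87861160 (plus strand), that of Igfbp3 chr11:7213874-7214173 (minus strand), that of Igfbp4 chr11:99040994-99041293 (plus strand) and that of Igfbp6 chr15:102143936-102144235 (plus strand).
Igf1: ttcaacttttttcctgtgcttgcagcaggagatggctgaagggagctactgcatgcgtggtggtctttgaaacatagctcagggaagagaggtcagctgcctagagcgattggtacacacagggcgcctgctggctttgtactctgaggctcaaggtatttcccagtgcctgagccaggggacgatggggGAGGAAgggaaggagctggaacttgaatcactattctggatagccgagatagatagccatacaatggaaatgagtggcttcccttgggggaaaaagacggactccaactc
Igfbp3: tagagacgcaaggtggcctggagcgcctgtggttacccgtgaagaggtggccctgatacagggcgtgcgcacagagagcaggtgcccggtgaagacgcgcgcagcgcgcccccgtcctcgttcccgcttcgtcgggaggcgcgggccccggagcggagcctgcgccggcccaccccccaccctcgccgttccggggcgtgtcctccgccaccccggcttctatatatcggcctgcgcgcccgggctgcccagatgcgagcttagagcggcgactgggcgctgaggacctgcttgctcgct
Igfbp4: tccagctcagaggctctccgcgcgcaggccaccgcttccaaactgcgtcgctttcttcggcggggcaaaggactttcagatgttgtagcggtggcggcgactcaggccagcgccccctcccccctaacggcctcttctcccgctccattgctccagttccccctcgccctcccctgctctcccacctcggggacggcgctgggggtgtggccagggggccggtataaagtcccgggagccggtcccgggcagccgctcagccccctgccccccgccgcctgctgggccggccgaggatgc
Igfbp6: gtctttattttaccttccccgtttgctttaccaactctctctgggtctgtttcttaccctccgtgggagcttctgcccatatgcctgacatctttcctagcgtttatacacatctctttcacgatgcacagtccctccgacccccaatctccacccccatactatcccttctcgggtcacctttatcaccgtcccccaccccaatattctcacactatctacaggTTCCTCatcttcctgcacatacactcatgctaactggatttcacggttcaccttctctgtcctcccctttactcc

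The window of Igf1 held GAGGAA once, as did that of Igfbp6 on the opposite strand, and those of Igfbp3 and Igfbp4 did not hold it. Of the 14 windows of the 10 genes, 6 held it, in 4 genes, and so did 28.3% of 32851 windows of all genes. The motif was thus found both before a gene that was higher and before a gene that was lower. Another motif, the GC box GGGCGG to which Sp1 binds (both strands), was in none of these 4 windows and in 35.7% of all; it shares no stretch with GAGGAA. In base composition the windows of Igfbp3 and Igfbp4 were alike, with 71.7% and 71.3% G and C and 37 and 27 CpG pairs. Igf1 had 52.3% with 6 CpG pairs and Igfbp6 49.7% with 8, near the medians of all windows (52.7% and 7). A match of letters is no site, and its absence from these windows says nothing of a factor.

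Some of the cells in which binding protein genes are known to be active were read through their marker genes. Genes of meninges and fibroblasts were lower in CD47 KO for 8 of 9, with a median log2 ratio of -0.28 and signals that summed to 83928 in WT against 78315 in CD47 KO. The brightest, Ptgds, which encodes a prostaglandin D synthase, was the 1 higher gene, with a log2 ratio of 0.04. With signals of 44552 in WT and 45766 in CD47 KO it weighed most in the sum. Perivascular macrophage genes were lower for 6 of 6 (median -0.35), with Pf4 as the brightest at -0.53 and a sum of 4419 in WT against 3399 in CD47 KO. Cells of the vessels went partly the same way. Endothelial genes were lower for 6 of 7 (median -0.26; 18693 and 15861), with Itm2a at -0.26. Genes of mural cells were lower for 3 of 6 (median -0.09; 15365 and 12234), with Vtn at -0.42. Choroid plexus genes were lower for 3 of 4 (median -0.46; 3267.5 and 2415), with Kcnj13 at -0.40. Igf2 is known from the meninges as well, and Igfbp2 from both meninges and astrocytes. The log2 ratios of Igf2 and Igfbp2 were -0.10 and 0.01. The part of these cells in the lower signals of Igfbp3, Igfbp4 and Igfbp6 was not tested.

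The lists of the neural cells differed from each other. Genes of oligodendrocytes were higher for 5 of 5 by little (median 0.11; summed signals of 157009 in WT and 170579 in CD47 KO), with Mobp at 0.15. Genes listed for their precursors, cells that carry the IGF1 receptor, were higher for 4 of 5 (median 0.46), with Bcas1 at 0.01. The summed signals of this list were 35623 in WT and 36884 in CD47 KO. The 1 lower gene was Pdgfra, at -0.06. Most of the sum came from Bcas1, with 29894.5 in WT and 30139 in CD47 KO. The next brightest, Pdgfra, had 3043 in WT and 2929 in CD47 KO, so that the sum follows Bcas1 rather than the list. Astrocyte genes were higher for 5 of 7 (median 0.10; 106335 and 117045), and S100b had -0.04. Neuronal genes stood furthest from 0 on the lower side, with 7 of 8 lower, a median of -0.99 and summed signals of 15636 in WT and 8834 in CD47 KO. Snap25, the brightest, had a log2 ratio of -0.98. The part of neurons in the lower signals of Igfbp3, Igfbp4 and Igfbp6 was not tested either. Across all marker lists, Pecam1, Folr1, Aqp1 and Lhb were under the floor in both arrays. Cst7 was under it in WT and Tshb in CD47 KO.

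**Figure D3:**
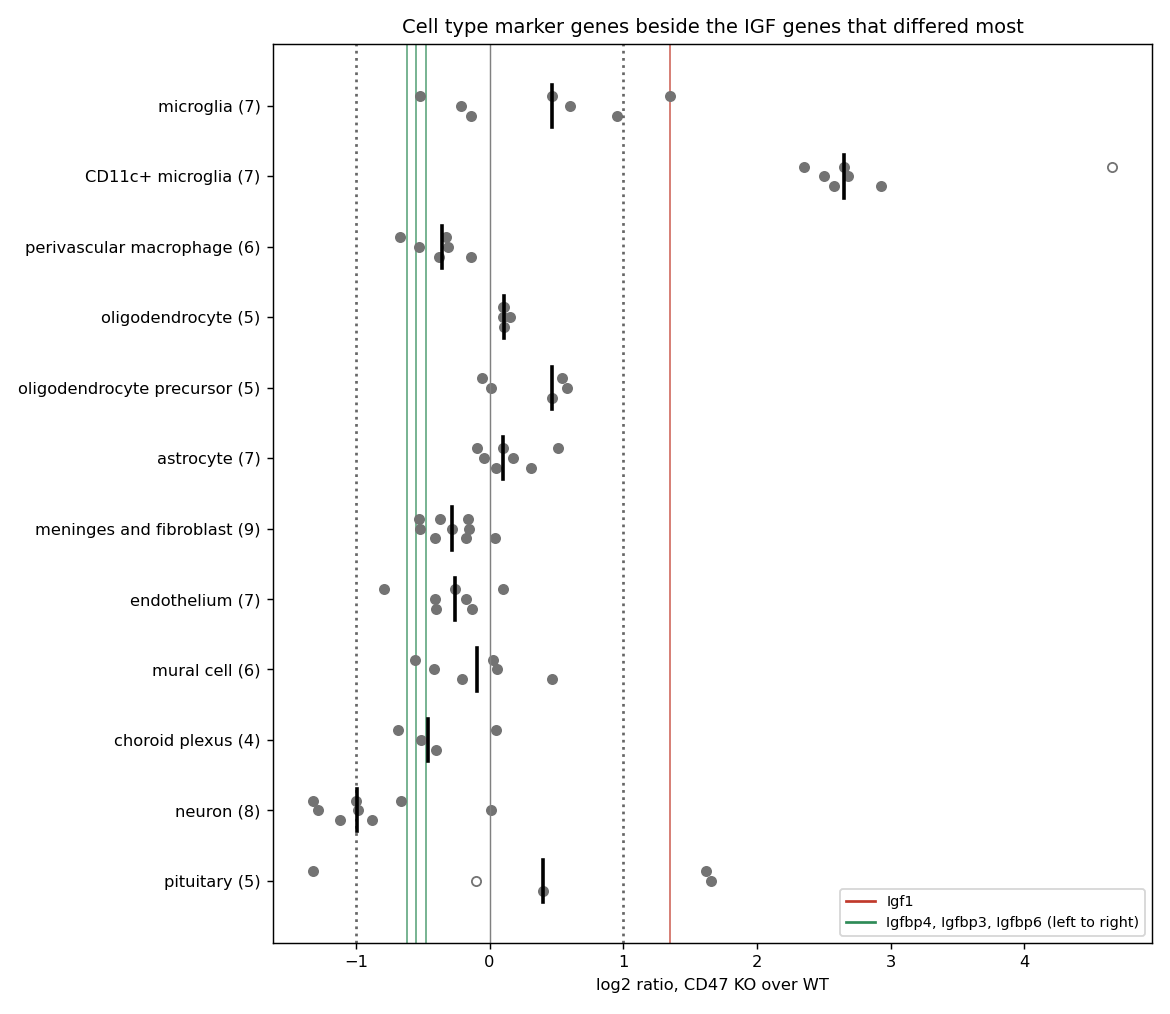
Horizontal axis: log2 ratio of CD47 KO over WT, for the measured genes of 12 cell type marker lists (circles, open for bounds; number measured in brackets) with the median of each list (black bar). Vertical lines give Igf1 at 1.35 (red) and Igfbp4, Igfbp3 and Igfbp6 (green); dotted lines mark 2-fold. The red line lies between the medians of the microglia list (0.46) and the CD11c+ microglia list (2.65), and the green lines lie below the medians of meninges and fibroblasts (-0.28), endothelium (-0.26) and choroid plexus (-0.46). The green lines lie above the median of the neuron list (-0.99).

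The genes that act on IGFs or downstream of their receptors were compared in 5 further lists. Of 72 genes listed, 66 had a probe set of their own and 55 were measured, with a median log2 ratio of 0.00, 28 above 0 and 27 below. Past 2-fold, 2 of the 55 were higher (Gh and Igfbpl1) and 0 lower, where 1.21% of all measured genes were higher and 0.818% lower. At 1.5-fold the counts were 3 higher and 3 lower, near the shares of all measured genes (4.02% and 4.68%).

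Among proteins that bind or process IGFs, the widest difference was that of Igfbpl1, which encodes an IGF-binding protein-like secreted protein. Its brighter probe set had 77.6 in WT, under the floor, and 251 in CD47 KO, at least 2.36-fold higher. The other probe set had 14.3 and 275.5, at least 2.59-fold higher. Both arrays were dim for this gene: a floor at the 60th percentile left a bound of at least 1.34-fold. Stc2, whose product inhibits PAPP-A, went from 91.1 to 151.0, a bound of at least 1.42-fold higher by 1 of its 3 probe sets, with the others under the floor. The protease gene Pappa itself was under the floor in both arrays, as were Pappa2, Stc1, Igfals, which encodes the partner of IGFBP3 in the blood, and Igfbp1. Vtn, the gene of vitronectin, a matrix protein that binds IGF2, read 9993 in WT against 7483 in CD47 KO (log2 ratio -0.42). Klk6, a protease of oligodendrocytes and the brightest of the list, had a log2 ratio of 0.32.

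Downstream of the receptor, 29 genes of adaptors, PI3K, AKT and mTOR were measured, with a median log2 ratio of 0.03. None was over 2-fold, and at the shares of all measured genes (1.21% higher, 0.818% lower) a list of this length would hold less than 1 such gene. Irs4, an insulin receptor substrate known from the hypothalamus, read 977 in WT against 503 in CD47 KO, a log2 ratio of -0.96, close to the median of the neuronal list; the part of neurons in it was not tested. Grb10, an adaptor that restrains the insulin and IGF1 receptors, had 1076 and 676 (log2 ratio -0.67), while its other measured probe set gave 0.18. Foxo3, a transcription factor that AKT keeps out of the nucleus, read 1306 in WT against 2392 in CD47 KO (log2 ratio 0.87), but its next probe set gave -0.29, so that the gene has no settled direction here. Irs1 and Irs2, the more widely used substrates, had log2 ratios of 0.03 and -0.15. The kinase gene Pik3cd, the brightest of the list, had -0.38.

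The other tasks of the Igf2r product were covered by 10 genes, all measured: 8 of the sorting of lysosomal enzymes, and Plaur and Tgfb1, whose products are known to bind that receptor (the latter in its latent form) but have no part in sorting. Their median log2 ratio was 0.02 and none was over 1.5-fold; at the shares of all measured genes (4.02% and 4.68%) a list of 10 would hold less than 1. M6pr, the gene of the smaller mannose 6-phosphate receptor and the brightest, read 5156 in WT against 5351 in CD47 KO (log2 ratio 0.05). The largest differences were those of Plaur, the urokinase receptor gene, at 0.45, and, among the sorting genes, Gga1, a sorting adaptor gene, at 0.30 and Nagpa, which finishes the mannose 6-phosphate tag, at 0.27. Among genes of proteins that bind Igf2 mRNA only Igf2bp3 was measured, with 251 in WT against 138.7 in CD47 KO (log2 ratio -0.86), and its other measured probe set went the opposite way (bound of 0.26).

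**Figure D4:**
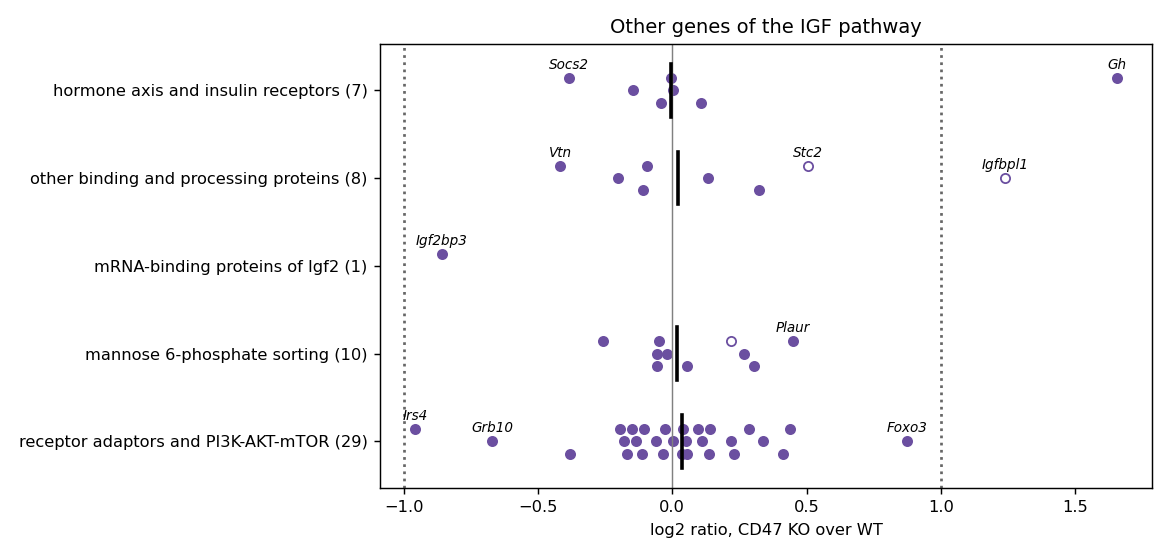
Horizontal axis: log2 ratio of CD47 KO over WT, for each measured gene of 5 lists of the IGF pathway (circles, open for bounds; number measured in brackets), with the median of each list (black bar) and dotted lines at 2-fold. Gh (1.66) and Igfbpl1 (a bound of 1.24) lie beyond the right dotted line, and the medians lie between 0.00 and 0.03 in the 4 lists with over 1 measured gene. The list labelled mannose 6-phosphate sorting also holds Plaur and Tgfb1.

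Several of these genes are neighbours on the chromosome. Igfbp2 and Igfbp5, side by side on chromosome 1, had log2 ratios of 0.01 and -0.01. Igfbp3 lies next to Igfbp1 on chromosome 11, and of this pair only Igfbp3 was measured. Igf2 adjoins Ins2 on chromosome 7, and Ins2 was under the floor in both arrays. Igf1 overlaps the noncoding gene Igf1os on chromosome 10. The probe set of Igf1os was under the floor in both arrays (79.2 in WT and 18.2 in CD47 KO), so that no difference was read from it.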

How the data were processed

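Optic nerve and optic tract RNA was extracted, pooled within genotype, turned into biotin-labelled cRNA from the 3' end and hybridised to GeneChip arrays of the mouse genome. The authors processed the scans with Expression Console; MAS5 is named in the submitters' processing notes, with a version not given in the sources used. The deposited file holds 1 linear MAS5 intensity for each probe set and array, and both arrays had the same 2% trimmed mean (500.003), as scaling to a common target gives. MAS5 gives noisy intensities near background, which the floor limits.

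Of 45101 probe sets, 64 controls were set aside. From the platform annotation 34945 probe sets had 1 gene symbol, 932 several and 9160 none; the latter groups were left out of gene counts. All 10 IGF genes and the brightest markers of each list were named, the 3 largest differences and all over 2-fold in each pathway list, and the 3 genes nearest to Igf1; other genes were named after their values were seen. Members and lists were chosen with earlier results of these data known. The order of neighbouring genes came from GRCm38.p6. Alternatives were other floors (40th percentile, 60th percentile, none), quantile normalisation, median centring, loess, the median over probe sets, and leaving out probe sets that can read several transcripts. Calculations used Python 3.11.15, numpy 2.4.6, pandas 2.3.3 and statsmodels 0.14.6, and the steps were tested on simulated data. The number of arrays limits the precision.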

Additional observations from a re-analysis of the deposited data

How the results depend on the processing

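Across the alternatives, all 77 log2 ratios obtained for the 10 genes stayed within 0.36 of the reported value, the SD of differences between probe sets of a gene. Many of them could not move. The brightest probe sets lay above every floor, so the other floors left each value as it was. Leaving out multi-transcript probe sets likewise changed none of the values that remained. Only the other scalings and the median over probe sets could shift a ratio. Igf1 ran from 1.35 to 1.43 by its gene value, Igfbp3 from -0.59 to -0.51, Igfbp4 from -0.62 to -0.51 and Igfbp6 from -0.48 to -0.43. Igf1r, Igf2r and Igfbp5 changed sign around 0. Without probe sets that can read several transcripts, Igfbp2, Igfbp4 and Igfbp5 had no value. Igf1 was over 2-fold higher under each alternative. Igfbp4 lost its place over 1.5-fold with median centring and had no value without multi-transcript probe sets, so that 0 of the genes were then over 1.5-fold lower. By the median over probe sets Igfbp4 also fell short of 1.5-fold, at -0.51. The 1 gene over 1.5-fold lower was then Igfbp3, at -0.59. Of the further pathway genes, 2 over 2-fold higher became 1 with the floor at the 60th percentile (Igfbpl1 lost) and 1 without multi-transcript probe sets (Gh has no other), and 6 without a floor, when 4 were over 2-fold lower; the genes added without a floor were all under it in both arrays. Over all genes, the 151 higher became 1287 without a floor, and the 102 lower became 173 with the floor at the 40th percentile, 55 at the 60th and 1445 without one. By the median over probe sets Foxo3 went from 0.87 to 0.29 and Grb10 from -0.67 to -0.24, and Foxo3 was -0.29 without multi-transcript probe sets. No paired analysis was possible because each genotype was 1 array.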
